A study of Mus musculus with 4 samples.

Results

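The imprinted Snrpn domain of mouse chromosome 7 was described through 7 named genes, Ube3a, Snrpn, Snurf, Ndn, Magel2, Mkrn3 and Peg12, in embryonic fibroblasts with and without the chromatin protein SmcHD1. The genes were taken by name from a table of 22691 genes, with no minimum level. They fill 6 rows, because Snrpn and Snurf share 1 row and 1 value. Cells of 2 libraries were homozygous for MD1, an allele of Smchd1 (MD1), and cells of 2 libraries had wild-type Smchd1 (WT). All 4 libraries came from female fibroblast cultures of stage E13.5, made from fetuses of C57BL6/J mothers and F1 fathers of JF1 and C57BL6/J. All also carried Xist deltaA on the maternal X in heterozygous form, WT included, so SmcHD1 loss was studied here on top of that mutation. The labels do not say whether the 2 libraries of a group came from separate fetuses.

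The table gives total expression as FPKM (fragments per kilobase of transcript scaled to sequencing depth), as 1 group mean made by the authors for MD1 and 1 for WT. There is no value per library, so no spread, error or test can be given for these genes. Differences are given as the ratio of the FPKM values and as a log2 ratio of (FPKM + 1), MD1 over WT, which understates the change of genes with low levels. A gene was counted as higher or lower at 2-fold or more on that log2 scale, and as expressed when its FPKM averaged 1 or more over MD1 and WT, which held for 11400 genes. Smchd1 itself had 1.94 FPKM in MD1 and 14.7 FPKM in WT, or 13.1% of the WT level. All 8 fibroblast markers checked were expressed. Of these, 5 were above 0 on the log2 scale and 3 below, with a median of 0.088, beside 50.8% of all expressed genes above 0. The 8 markers summed to 4549 FPKM in MD1 and 5497 FPKM in WT. Col1a2 had 477.3 FPKM in MD1 and 848.7 FPKM in WT, and Pdgfra had 9.25 FPKM in MD1 and 4.79 FPKM in WT. The depth of the libraries is known only from allele-specific reads of X-linked genes, which totalled 704635 and 806626 in MD1 and 521768 and 544330 in WT.

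Genomic imprinting limits expression to the allele from one parent. In mouse, Snrpn, Snurf, Ndn, Magel2, Mkrn3 and Peg12 are expressed from the paternal chromosome under the control of an imprinting centre at the Snrpn promoter, and Ube3a is expressed mainly from the maternal chromosome in neurons and from both elsewhere. Loss of paternal expression from the human counterpart of this region causes Prader-Willi syndrome, and loss of maternal UBE3A causes Angelman syndrome. Earlier work in mice has named this cluster among the imprinted domains that respond to a lack of SmcHD1. Allele-specific values were given for 0 of the 6 rows, since such values cover the X chromosome, so the parental origin of the RNA below is not analysed here. A gain of RNA from the normally active allele and a gain from the silent allele cannot be told apart in these values.

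Ndn and Peg12, at one end of the domain, had 2.01 and 3.25 times as much RNA in MD1 as in WT. Mkrn3, at the same end, was also at 3.25 times, but its mean of 0.73 FPKM was below the bound for expressed genes. At the other end Snrpn and Snurf were lower in MD1, at 0.67 times the WT level, and Ube3a was close in both groups, at 1.17 times. Magel2, which lies between Ndn and Mkrn3, was near the lower end of the scale in both groups. On the log2 scale 5 of the 6 rows were above 0, with Magel2 at only 0.042, and 1 was below. Of the expressed genes, 50.8% were above 0. The share over the whole table was 38.4%, lowered by 4469 genes at 0 in both groups. At 2-fold or more, 1 of 6 rows was higher in MD1 (Peg12), against 0.723% of all 22691 genes, and 0 of 6 were lower, against 1.45%. Among the expressed genes these shares were 1.39% and 2.82%. Ndn fell just short of this bound, with a log2 ratio of 0.99. With 0.1 FPKM added in place of 1, the count of higher rows was 3 (Peg12, Mkrn3 and Ndn), against 2.13% of all genes, and that of lower rows 0, against 4.21%. Among the expressed genes these shares became 2.27% and 4.34%. The median log2 ratio of the 6 rows was 0.43, beside a median of 0.0057 over the 11400 expressed genes. Without values per library, the spread behind these differences is unknown.

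**Figure D1:**
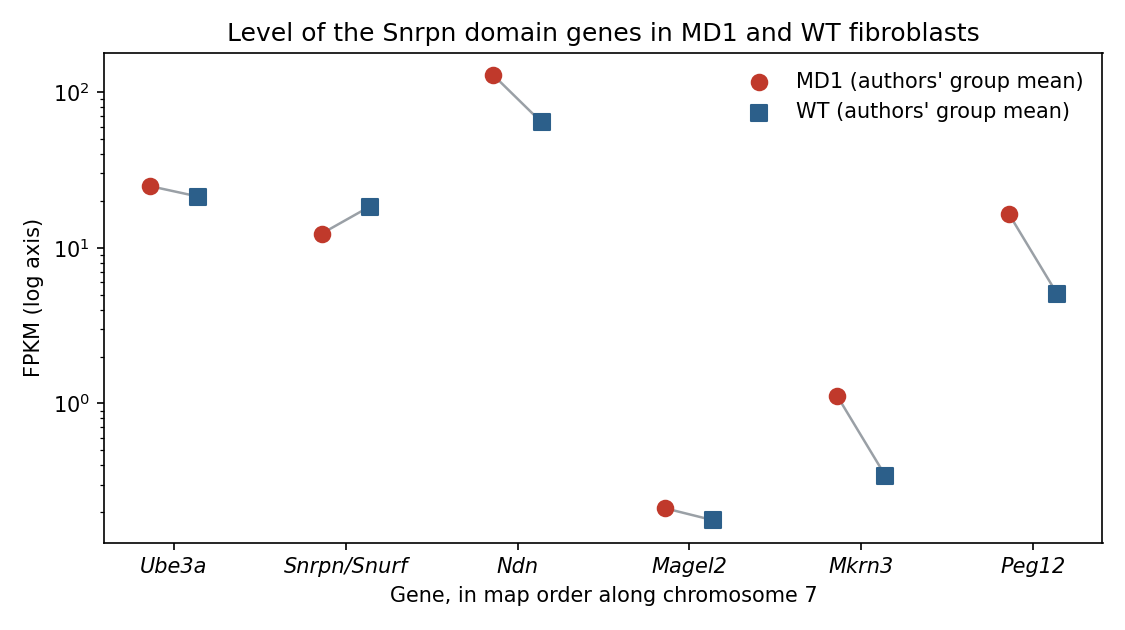
FPKM of the 6 rows of the domain in map order on chromosome 7, on a log axis, with MD1 as circles and WT as squares, each the authors' group mean without error. Peg12, Ndn and, at a low level, Mkrn3 are higher in MD1. The row of Snrpn and Snurf is lower (12.3 FPKM in MD1 and 18.4 FPKM in WT), and Ube3a and Magel2 lie close in both groups.

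The order of levels was led by Ndn in both groups and closed by Mkrn3 and Magel2 in both. In MD1 the order was Ndn, Ube3a, Peg12, Snrpn and Snurf, Mkrn3 and Magel2. In WT, Snrpn and Snurf stood before Peg12, so these 2 rows changed places. Which neighbours in this order differ beyond the spread between libraries cannot be said from group means. FPKM summed over the 6 rows was 183.1 in MD1 and 109.1 in WT, and Ndn made up 69.99% of the sum in MD1 and 58.5% in WT.

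Ube3a (chromosome 7, 66484120 to 66562097, plus strand, mm9) encodes the E6-AP ubiquitin ligase, which attaches ubiquitin to target proteins through a HECT domain. It had 24.9 FPKM in MD1 and 21.3 FPKM in WT, a log2 ratio of 0.21. Of all genes in the table, 13.9% had a larger ratio, and of the expressed ones 24.6%, so a difference of this size was common. In GENCODE its transcripts have 9 to 13 exons. A gene listed on the opposite strand inside the span of Ube3a, A230073K19Rik, had 0.0034 FPKM in MD1 and 0.00085 FPKM in WT. The library kit keeps the strand of each RNA, but whether the authors' counting used it is not stated in the labels.

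Snrpn and Snurf share 1 locus (chromosome 7, 67127387 to 67285105, minus strand, mm9) and a bicistronic messenger RNA that is read from the imprinting centre. Snrpn encodes SmN, a relative of the spliceosomal protein SmB that is abundant in brain and heart, and Snurf encodes a small basic protein of the same transcript. The shared row had 12.3 FPKM in MD1 and 18.4 FPKM in WT, a log2 ratio of -0.54. Of all genes, 4.89% had a smaller ratio, and of the expressed ones 8.68%. It was the one row of the domain with less RNA in MD1, and the values do not say how it divides between both coding parts. Snhg14 is the noncoding gene whose long transcript carries small nucleolar RNAs and runs antisense to Ube3a. Its row covers 67114463 to 67119317, beside Snrpn, and does not reach Ube3a. It had 0.869 FPKM in MD1 and 1.18 FPKM in WT, a small log2 ratio of -0.22 at a mean of 1.02 FPKM, close to the bound for expressed genes. Ipw, another noncoding RNA of this stretch, had 0.0284 FPKM in MD1 and 0.0813 FPKM in WT, both too low for a reading. Snhg14 and Ipw are annotated on the same strand as Snrpn.

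RefSeq lists 4 start sites for Snrpn in GRCm38.p6, and the start of Snurf is that of the most downstream one. Their windows run from 60005150 to 60450427, a wider range than the 157719 bases of the measured row, so not all 4 starts can lie within that row. The sites below are shown because an element of the same letters also occurs before Ndn, a gene with the opposite direction of difference. The capitals mark CGCATGCG, which reads the same on both strands and is close to the binding motif of the transcription factor NRF1.
Snrpn, most upstream start, chr7:60450225-60450248, minus strand: aacatccaCGCATGCGtgattgga
Snrpn, next start, chr7:60140288-60140311, minus strand: aacatccaCGCATGCGtgatggga
Snrpn, next start, chr7:60048034-60048057, minus strand: aacatgcaCGCATGCGtcgttgaa
Snrpn and Snurf, shared start, chr7:60005150-60005173, minus strand: ttgcctgggaCGCATGCGtaggga
Ndn, chr7:62348246-62348269, plus strand: tcccaacaCGCATGCGcaatatcg
The element began 63, 78 and 71 bases before the first 3 starts of Snrpn, 37 bases into the transcript at the shared start and 23 bases before the start of Ndn. It was found in 5 of the 9 promoter windows of the domain and in 1.86% of all 32817 windows, each of 250 bases before to 50 bases after a start. The motif was picked after the sequences were seen, and the windows of Snrpn resemble each other, so these matches are not independent. The NRF1 core GCATGCGC, of the same length and shifted by 1 base from that element, was searched on both strands and occurred in the Ndn window alone and in 2.71% of all windows. The Sp1 box GGGCGG occurred in the windows of Ube3a, Ndn and Magel2 (35.6% of all windows). CCAAT was found for Mkrn3 and Snrpn (37.4%), and TGACGTCA and CACGTG in 0 of the 9 windows (1.79% and 7.15%). A match is a description of the letters and does not show binding.

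Ndn (chromosome 7, 69493163 to 69494813, plus strand, mm9) encodes necdin, a protein of the MAGE family that slows cell growth and is known to bind E2F1 and p53. It had 128.1 FPKM in MD1 and 63.9 FPKM in WT, a difference of 64.3 FPKM and the largest of the domain in absolute terms. The level in MD1 was above that of 97.5% of all genes, and the level in WT above that of 94.3%. The MD1 to WT ratio was 2.01, and 167 genes, or 0.736% of the table, had a larger log2 ratio. Among the expressed genes this share was 1.40%. Ndn is known for high expression in neurons and in progenitors of fat and muscle. The summed FPKM of 12 neuron markers was 71.4 in MD1 and 73.1 in WT, a sum of markers that differed in both directions. Of the 12, 5 were expressed. Of these 5, 1 passed 2-fold upwards and 2 downwards, against 1.39% and 2.82% of all expressed genes. Rbfox3 was at 0.0129 FPKM in MD1 and 0.0115 FPKM in WT, and Snap25 at 0.0298 FPKM in MD1 and 0.0326 FPKM in WT, both being defining markers of mature neurons, and 0 of the 12 was at exactly 0. Single neuron markers went both ways, with Stmn2 at 24.8 FPKM in MD1 and 9.62 FPKM in WT and Gap43 at 10.3 FPKM in MD1 and 37.6 FPKM in WT. The 6 skeletal muscle markers summed to 35.2 FPKM in MD1 and 119.2 FPKM in WT. All 6 were lower in MD1, but only 3 were expressed, and Pax7 was at 0 in MD1 and 0.0061 FPKM in WT. The 6 adipocyte markers summed to 33.3 FPKM in MD1 and 45.5 FPKM in WT, with 4 of the 6 lower. Of these markers 4 were expressed, and Adipoq was at 0 in MD1 and 0.0125 FPKM in WT. Among all 22691 genes 9512 were below 0 on the log2 scale, and among the 11400 expressed ones 5614. The part of such cell mixtures in the levels of Ndn was not tested. In bulk RNA, fewer cells of a type and less RNA per cell cannot be told apart.

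Magel2 (chromosome 7, 69521865 to 69526526, plus strand, mm9) encodes another MAGE protein, which works with the ligase TRIM27 and the retromer in endosomal recycling and is best known from the hypothalamus. It had 0.212 FPKM in MD1 and 0.177 FPKM in WT, a log2 ratio of 0.042. Both levels were under 1 FPKM, and without read numbers a difference of this size cannot be told from none. It lies 27.1 kb from Ndn and 35.95 kb from Mkrn3, both of which had higher values in MD1.

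Mkrn3 (chromosome 7, 69562479 to 69565025, minus strand, mm9) encodes a makorin RING-finger ubiquitin ligase known for holding back the onset of puberty. It had 1.12 FPKM in MD1 and 0.344 FPKM in WT, which is 3.25 times the WT level at a low level in both groups. Its log2 ratio was 0.66 with 1 FPKM added and 1.46 with 0.1 FPKM added, and 2.45% of all genes had a larger ratio on the first of these scales.

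Peg12 (chromosome 7, 69606757 to 69609396, minus strand, mm9), also called Frat3, encodes a protein of the FRAT family, which binds the kinase GSK3 and can favour Wnt signalling. It had 16.4 FPKM in MD1 and 5.05 FPKM in WT, also 3.25 times the WT level, with a log2 ratio of 1.53. A larger ratio was held by 57 genes of the table, or 0.251%, and by 0.5% of the expressed genes. The plain FPKM ratios of Peg12 and Mkrn3, the 2 outermost genes at this end, were the largest of the domain, while their levels in MD1 differed from 16.4 FPKM for Peg12 to 1.12 FPKM for Mkrn3.

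**Figure D2:**
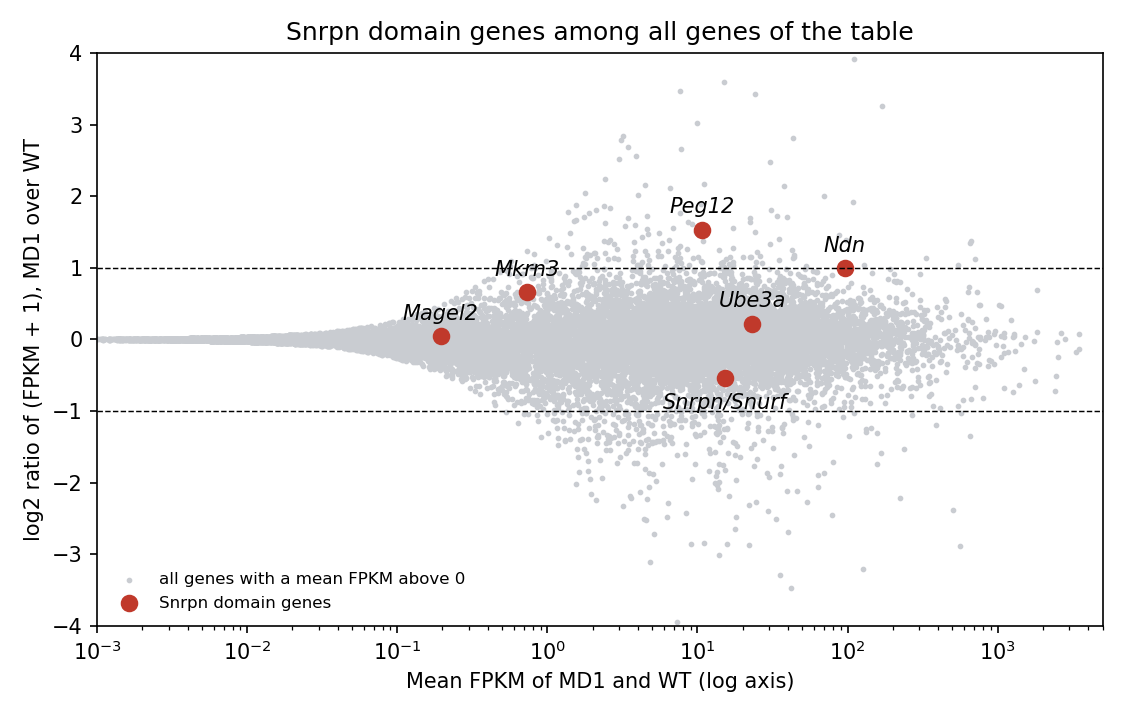
Log2 ratio of (FPKM + 1), MD1 over WT, against the mean FPKM of both groups on a log axis, for genes with a mean above 0, with 80 of these 18222 genes outside the axes. Dashed lines mark 2-fold, Peg12 lies above the upper one at 1.53, Ndn lies just below it at 0.99, and ratios of genes below 1 FPKM are drawn towards 0 by the added 1 FPKM.

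Ndn, Magel2, Mkrn3 and Peg12 share a structure that their choice did not use. Each is annotated with 1 transcript of 1 exon in GENCODE, while Snrpn has 10 to 11 exons and Snurf 3. Among 10951 expressed genes that could be matched to GENCODE by symbol, 208 (1.90%) had single-exon transcripts throughout. The median log2 ratio of these 208 genes was -0.029, and 4 of them (1.92%) passed 2-fold upwards in MD1, beside 1.39% of all expressed genes. The stretches before the starts of Magel2, Mkrn3 and Peg12 are shown because they are neighbours with unlike differences. Each is 250 bases from RefSeq (GRCm38.p6), ending at the base before the annotated start, with CpG sites, where mammalian DNA is methylated, in capitals.
Magel2, chr7:62376729-62376978, plus strand: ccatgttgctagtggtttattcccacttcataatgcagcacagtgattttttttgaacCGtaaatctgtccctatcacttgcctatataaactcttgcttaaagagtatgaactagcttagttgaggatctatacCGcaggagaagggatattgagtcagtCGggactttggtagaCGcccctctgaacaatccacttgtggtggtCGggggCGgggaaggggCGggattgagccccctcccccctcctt
Mkrn3, chr7:62420154-62420403, minus strand: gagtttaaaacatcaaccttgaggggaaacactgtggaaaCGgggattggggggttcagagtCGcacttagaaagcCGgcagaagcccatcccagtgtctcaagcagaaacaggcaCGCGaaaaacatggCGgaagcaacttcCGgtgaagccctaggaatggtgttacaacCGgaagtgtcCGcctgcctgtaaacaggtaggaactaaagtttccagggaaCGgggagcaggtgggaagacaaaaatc
Peg12, chr7:62464511-62464760, minus strand: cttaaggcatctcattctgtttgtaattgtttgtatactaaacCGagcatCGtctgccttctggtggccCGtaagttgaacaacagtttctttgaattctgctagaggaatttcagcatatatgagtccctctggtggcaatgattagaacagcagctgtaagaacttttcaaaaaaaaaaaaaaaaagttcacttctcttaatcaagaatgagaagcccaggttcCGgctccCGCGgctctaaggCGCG
The printed stretches hold 7 CpG sites for Magel2, 10 for Mkrn3 and 8 for Peg12. Over the full windows of 300 bases there were 10 CpG sites for Magel2, 15 for Mkrn3, 12 for Peg12, 11 for Ndn, 29 for Ube3a and 7 at the shared start of Snrpn and Snurf, with a median of 7 over all windows. The 3 upstream starts of Snrpn had 2 to 4. DNA methylation was not measured in these data.

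In map order the genes of the domain lay in separate stretches, and the differences were unlike within each of them. Ube3a and the row of Snrpn and Snurf lay 565.3 kb apart, a gap of 2208 kb followed, and Ndn, Magel2, Mkrn3 and Peg12 filled 116.2 kb. The whole domain spanned 3.13 Mb. The 7 other rows between Ube3a and Peg12, Snhg14 and Ipw among them, summed to 1.05 FPKM in MD1 and 1.37 FPKM in WT. Of 27 expressed neighbours within 5 Mb of either end, Snhg14 included, 0 passed 2-fold upwards in MD1 and 1 passed it downwards, against 1.39% and 2.82% of all expressed genes. The lower one was Pcsk6, a proprotein convertase gene 3398 kb beyond Peg12, with 4.25 FPKM in MD1 and 11.3 FPKM in WT. With 0.1 FPKM added in place of 1, Chrna7 and Tarsl2 were also past 2-fold upwards, against 2.27% upwards and 4.34% downwards of all expressed genes. The median log2 ratio of the 27 neighbours was 0.020.

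The first gene beyond Peg12, Chrna7, a nicotinic acetylcholine receptor subunit gene 634.2 kb away, had 2.44 FPKM in MD1 and 0.969 FPKM in WT, a log2 ratio of 0.80. The next expressed one, Klf13, had 14.5 FPKM in MD1 and 12.3 FPKM in WT. On the other side, Atp10a, the gene beside Ube3a, had 8.22 FPKM in MD1 and 5.999 FPKM in WT. Herc2, Nipa1, Nipa2, Cyfip1 and Tubgcp5 further out had log2 ratios of -0.10 to 0.15. Tarsl2, 3180 kb beyond Peg12, had 7.10 FPKM in MD1 and 3.46 FPKM in WT.

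**Figure D3:**
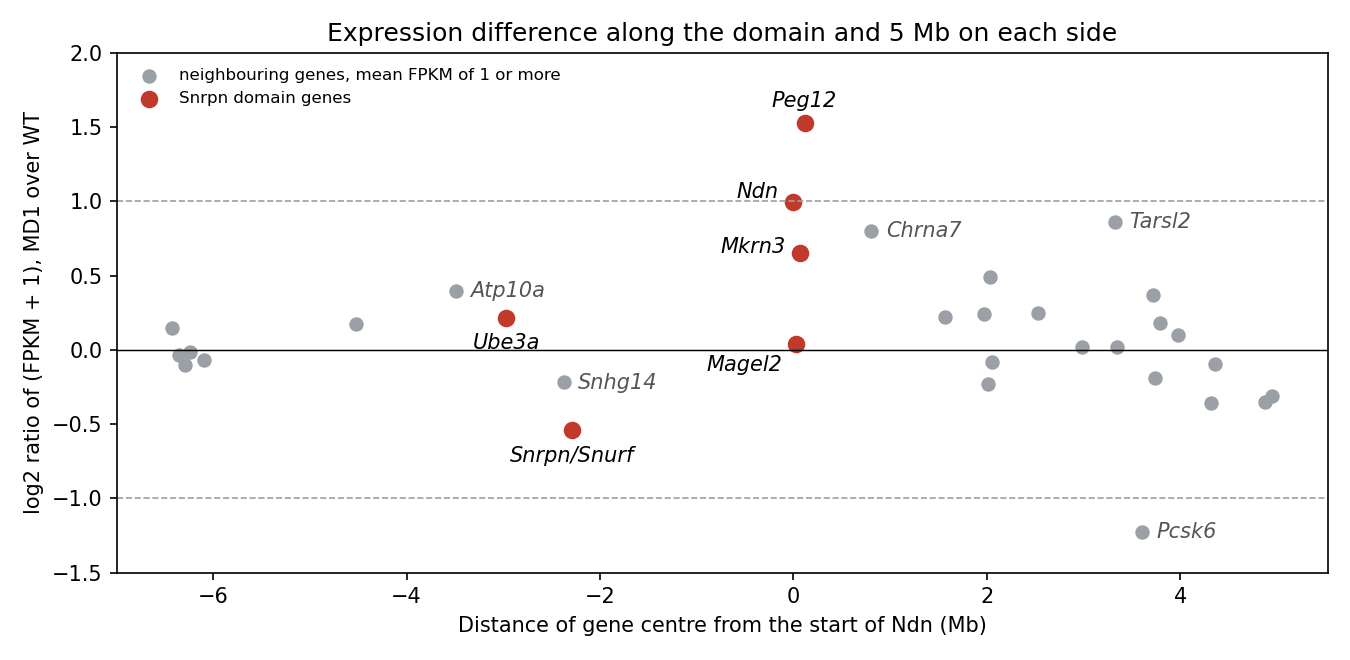
Log2 ratio of (FPKM + 1), MD1 over WT, by distance of the gene's centre from the start of Ndn in Mb, for the rows of the domain and for expressed neighbours; dashed lines mark 2-fold. The domain genes near 0 Mb range from 0.042 for Magel2 to 1.53 for Peg12, Snrpn and Snurf stand at -0.54, and 1 neighbour, Pcsk6, lies beyond 2-fold.

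The relatives of the domain's genes elsewhere in the genome gave a comparison by protein family. The 7 genes of the Sm core, the ring of proteins around spliceosomal RNAs, were higher in MD1 without exception but by less than 2-fold, with a median log2 ratio of 0.42 and 50.8% of all expressed genes above 0. Snrpb, which encodes SmB, had 177.4 FPKM in MD1 and 123.6 FPKM in WT. The row of Snrpn and Snurf therefore stood at 6.94% of the Snrpb level in MD1 and 14.9% in WT. Among 5 other expressed MAGE genes, 2 were above 0 and 3 below (median -0.13). They included Maged2, with 40.4 FPKM in MD1 and 71.5 FPKM in WT, and Ndnl2, a subunit gene of the SMC5/6 complex on the same chromosome, with 33.8 FPKM in MD1 and 28.3 FPKM in WT. Maged1, Maged2, Mageh1 and Magee1 are X-linked, and in these cells the paternal X is the inactive one.

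The makorin genes Mkrn1 and Mkrn2 had 10.5 and 9.77 FPKM in MD1, against 11.2 and 8.81 FPKM in WT. Of the other FRAT genes, Frat1 had 0.0993 FPKM in MD1 and 0.101 FPKM in WT, and Frat2 had 1.04 FPKM in MD1 and 0.668 FPKM in WT, so Peg12 was the most abundant of the 3 in both groups. Among 10 genes of the beta-catenin destruction complex and Dishevelled, with which FRAT proteins act, 0 passed 2-fold with 1 FPKM added. The median was -0.070. Axin2, a common target of Wnt signalling, had 0.558 FPKM in MD1 and 1.61 FPKM in WT. Its log2 ratio of -0.74 understates the difference, since the added 1 FPKM weighs heavily at this low level. Gsk3b had 17.5 FPKM in MD1 and 20.4 FPKM in WT. Of 23 other expressed HECT ligase genes, 0 passed 2-fold (median -0.050). Over all expressed genes 1.39% passed it upwards and 2.82% downwards, so few or none would pass in lists of these sizes. The relatives Ube3b and Ube3c had 18.8 and 26.2 FPKM in MD1, against 22.8 and 23.3 FPKM in WT.

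Genes of proteins that work with necdin and MAGEL2 differed by less than 2-fold, as did most expressed genes. Of all expressed genes, 1.39% passed 2-fold upwards, 2.82% passed it downwards and 50.8% were above 0, which the counts below stand beside. Of 5 necdin partners, 4 were above 0 (median 0.23), with E2f1 at 20.2 FPKM in MD1 and 15.2 FPKM in WT and Sirt1 at 10.7 FPKM in MD1 and 6.75 FPKM in WT. Of 10 expressed MAGEL2, retromer and WASH genes, 7 were above 0 (median 0.068), with Trim27 at 20.8 FPKM in MD1 and 14.9 FPKM in WT. Of 12 expressed factors that keep or set imprints, 8 were above 0 and 0 passed 2-fold (median 0.043). Dnmt1, the methyltransferase that copies DNA methylation, had 43.4 FPKM in MD1 and 25.7 FPKM in WT, and its partner Uhrf1 had 29.6 FPKM in MD1 and 16.04 FPKM in WT. Zfp57, a zinc-finger protein gene that protects imprints, had 12.5 FPKM in MD1 and 15.2 FPKM in WT.

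**Figure D4:**
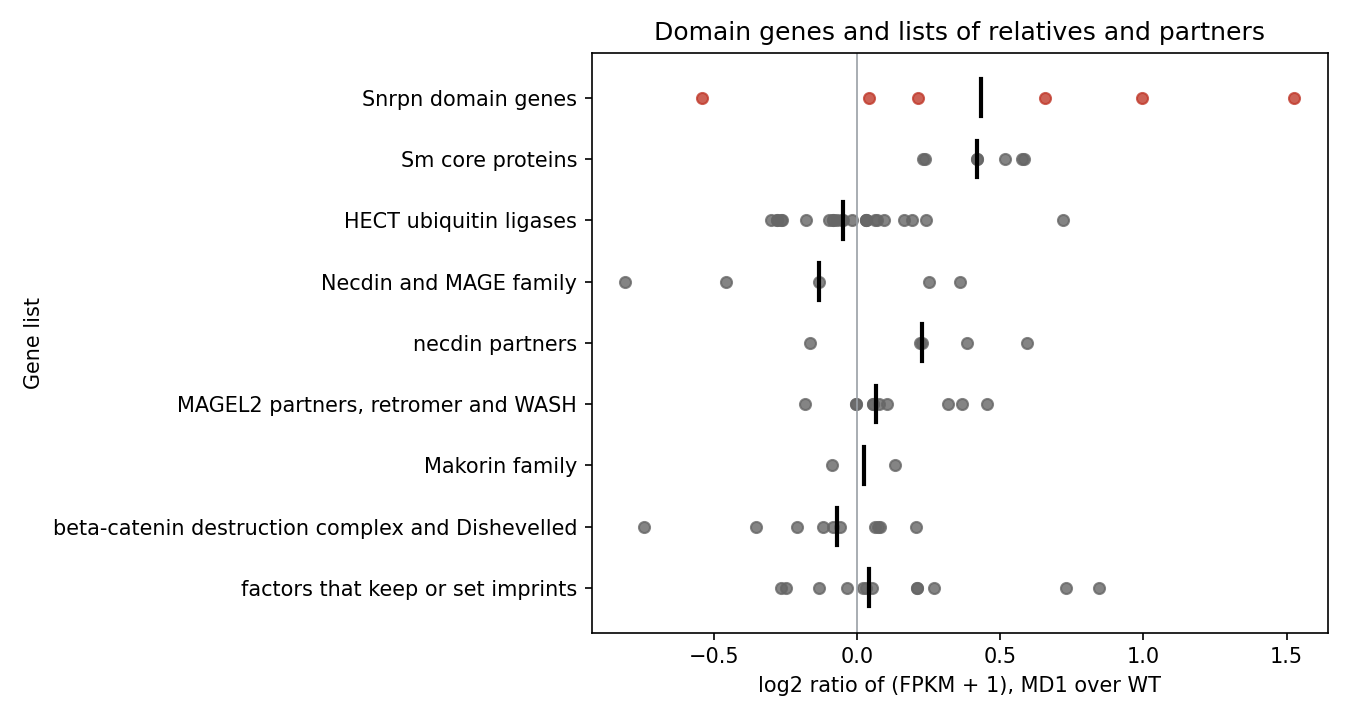
Log2 ratio of (FPKM + 1), MD1 over WT, for the 6 rows of the domain and for expressed genes in lists of relatives and partners; each point is a gene and each black bar a list's median. The domain genes spread from -0.54 to 1.53, and the Sm core genes lie at 0.23 to 0.58.

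By closeness of both levels on the log2(FPKM + 1) scale, the autosomal genes most like Peg12 were Gjb2 (16.2 FPKM in MD1 and 5.11 FPKM in WT), the shared row of Raet1c and Raet1e, and Cbr3. Their Euclidean distances from Peg12 were 0.021, 0.27 and 0.30, so only Gjb2 matched it closely. Those most like Ndn were Nhp2, Ppa1 and Plin2, at Euclidean distances of 0.23 to 0.29, so no gene matched the levels of Ndn closely. Those most like Snrpn and Snurf were Pqlc3, Abcc5 and Man1a, and those most like Ube3a were Raph1, Smad7 and Chsy1. This likeness rests on 2 group means per gene.

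In 2 other imprinted domains the differences also went both ways. In the Igf2r domain, the noncoding gene Airn had 3.08 FPKM in MD1 and 1.32 FPKM in WT, and Igf2r had 65.4 FPKM in MD1 and 104.2 FPKM in WT. In the Peg10 domain, 1 of 9 expressed genes passed 2-fold upwards (Tfpi2, log2 ratio 2.17) and 1 downwards (Pon3, -1.13), against 1.39% and 2.82% of all expressed genes. Whether the Snrpn domain differs from these was not tested, since there are no values per library. The F1 fathers can pass on either a JF1 or a C57BL6/J copy of an autosomal region, so a difference between groups in the paternal copy of chromosome 7 and the MD1 genotype cannot be told apart.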

How the data were processed

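Polyadenylated RNA of 2 MD1 and 2 WT fibroblast libraries was sequenced with a stranded kit, per the labels' protocols. FPKM values were deposited by the authors as 1 mean per group. The submitters' processing notes name Cuffdiff, Cufflinks 2.2.1 and the build mm9, but not what each was used for. Neither the aligner nor the gene annotation, nor whether strand entered the counting, is given in the sources used here. Allele-specific read counts and JF1 fractions, as deposited, cover X-linked genes, and of these only the read totals were used, as a rough sign of depth.

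Starts were counted from 0 in the table: moved up by 1, 9511 spans equalled RefSeq lengths, against 620 as given, among 21379 genes matched by symbol. Printed positions of genes are 1-based in mm9, and those of sequences are GRCm38.p6 (RefSeq), which were not converted. All 7 names matched a RefSeq promoter window. Of 22691 rows, 27 hold several names.

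Log2 ratios used a pseudocount of 1 FPKM and no filter for the domain, and a minimum mean of 1 FPKM for neighbours and lists (Python 3.11.15, pandas 2.3.3, numpy 2.4.6). The functions were run on simulated group means with known changes in genes at high levels and no noise. This checks the code only, and does not cover low levels or the spread between libraries. limma was planned for values per library and could not be fitted with group means, and the planned protein comparison was not made. Alternatives were a pseudocount of 0.1 FPKM, the other filter, median centring and quantile normalization, and, added after the data were seen, an exact match of the gene name. Named genes were the domain's genes, neighbours within 5 Mb, up to 4 genes of each list with the largest absolute ratio, close relatives, and the 3 nearest genes by level. Rbfox3, Snap25, Pax7, Adipoq, Ipw and A230073K19Rik were named after their values were seen. The genes of the domain and the lists were chosen with earlier results of these data known.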

Additional observations from a re-analysis of the deposited data

How the results depend on the processing

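No paired analysis was possible because the FPKM columns carry no replicate number, and leaving out a library was not possible for the same reason. The sign of each of the 6 log2 ratios was the same under the other pseudocount, median centring and quantile normalization, which use the same group means and say nothing about the spread between libraries. The count of rows at least 2-fold higher in MD1 was 1 as reported, 3 with a pseudocount of 0.1 FPKM and 2 with quantile normalization, where Ndn passed at 1.0047. The median log2 ratio of the domain was 0.43 as reported, 0.61 with a pseudocount of 0.1 FPKM, 0.604 over the 4 expressed rows, and 0.66 when the shared row of Snrpn and Snurf was left out. The count of neighbouring genes beyond 2-fold was 1 as reported and 3 with a pseudocount of 0.1 FPKM (Pcsk6, Chrna7 and Tarsl2). Median centring moved ratios by 0.0012. Of 19 gene lists, the median moved by over 0.1 for 3 with a pseudocount of 0.1 FPKM and for 7 without a filter, and changed sign for 2 without a filter and 1 with quantile normalization. The depth behind the FPKM values is unknown, so no counting error can be given for any of the 6 rows.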
